A study of Mus musculus with 6 samples.

Results

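Ribosome biogenesis genes encode the factors that transcribe, modify, cut and fold ribosomal RNA (rRNA) and assemble it with proteins into ribosomal subunits. A set of 33 such genes was followed in interleukin-2 (IL-2)-activated splenic CD8+ T cells (CD8-TC) of wild-type (WT) and Runx3-deficient mice. Members were chosen by name, from genes of known role, but with earlier results of these data known. Each was read from array rows assigned to that symbol alone, taking the row of highest mean where a gene had several. By this rule 32 of the 33 genes had a row and all 32 were bright enough to be tested, among 10021 tested genes of 19938 with a row. Ppan, a large subunit factor, has no value here because its row is shared with another symbol.

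The study asked which genes depend on Runx3, a transcription factor of cytotoxic lymphocytes, in activated CD8-TC. It used 6 Affymetrix mouse gene ST 1.0 arrays, 3 from Runx3 +/+ mice (WT1 to WT3) and 3 from mice labelled Runx3 -/- (KO1 to KO3), each from the cells of an individual ICR mouse labelled male and aged 6 weeks. The cells of both groups were selected with anti-CD8 beads, stimulated through the T cell receptor with anti-CD3 and anti-CD28 for 2 days and grown for 4 days in 100 units/ml of human IL-2. Only the Runx3 -/- cells went through flow cytometric sorting as well, first to take out CD11c+CD8+ dendritic cells and then, once cultured, CD4+CD8- cells, so the sorting and the genotype cannot be told apart. The segment of Runx3 that the allele lacks is not stated in the labels or methods used here.

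The arrays correlated with r between 0.950 and 0.990 over all rows, with the lowest value between WT2 and KO2. The Runx3 row did not separate the groups, with log2 values of 8.77, 8.26 and 9.16 on WT1 to WT3 and 8.91, 9.11 and 9.27 on KO1 to KO3 (log2 difference 0.37, SE 0.24, limma adjusted p = 0.521). Its probes lie along the whole transcript and need not fall in the disrupted segment, so the row does not check the labels, and the second group is called KO-labelled throughout. WT1 had an Xist value of 10.6 against 3.31 to 3.40 on the other arrays, and an Eif2s3y value of 3.93 against 9.24 to 9.39, which goes against its male label. CD8 T cell markers were bright in both groups, with a mean of 10.9 to 11.2 over 6 markers on WT arrays and 11.0 to 11.3 on KO-labelled arrays. Natural killer (NK) cell markers had means of 6.52 to 6.69 on WT and 5.19 to 6.03 on KO-labelled arrays over 5 genes, with Ncr1 and Klra8 dim on every array, that is never at the table's median of 4.26, and the other 3 lower at the study's threshold. Of 11 dendritic and myeloid markers 9 were dim on every array, including Itgax, which encodes CD11c, as were 4 of 5 B cell markers, including Cd79a and Ms4a1, while Cd79b was lower at the study's threshold (log2 difference -0.93). The 4 CD4 T cell markers averaged 5.14 to 5.43 on WT and 5.35 to 5.89 on KO-labelled arrays, and Cd4 and Zbtb7b were higher at the study's threshold described below. The study names both genes among Runx3 targets earlier reported to respond to its loss during CD8-TC development. More CD4 T cells and a change within CD8-TC therefore cannot be told apart from these values. The part of any of the markers above in the results below was not tested.

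Ribosome production starts in the nucleolus, where RNA polymerase I transcribes a long precursor that holds most of the rRNA. Small nucleolar ribonucleoproteins (snoRNPs) of the box C/D class guide ribose methylation and those of the box H/ACA class guide pseudouridine formation, while separate sets of factors mature the small and the large subunit. T cells that enter rapid division after activation build ribosomes at a high rate, and the transcription factor Myc, which binds the E-box CACGTG with its partner Max, is known to drive many of these genes. Polyamines, made through ornithine decarboxylase and spermidine synthase, bind rRNA, and both enzymes are commonly counted among the Myc-responsive growth genes.

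Of the 32 genes, 28 had a lower mean on the KO-labelled than on the WT arrays, that is 87.5% of them, against 52.0% of all 10021 genes tested. The median log2 difference, KO-labelled minus WT, was -0.47 over the 32 genes and -0.01 over all tested genes, and 23 of the 32 were at -0.3 or below, against 18.6% of all genes. No gene of the set passed an adjusted p of 0.05 in limma, a threshold passed by 0.629% of all genes, while 4 were lower at an unadjusted p under 0.05 (background 7.14%) and 0 were higher. The study's methods set a threshold of an unadjusted p under 0.05 with at least a 1.5-fold change. It was applied here to limma's p, not to the p of the study's own software. By it 3 genes were lower, namely Fbl, Nhp2 and Nob1, against 4.33% of all genes. None was higher, against 3.97% of all genes, and 8.3% of all genes passed in either direction. In an unmoderated linear model only 1 gene of the set, Nob1, passed these cutoffs, with 267 of all tested genes lower and 241 higher. In 3 genes, Nhp2, Rrp12 and Nob1, every KO-labelled array was below every WT array, against a background of 10.9% of all genes that were separated in this direction, so the set held no larger share of separated genes than the table as a whole. In bulk RNA, fewer cells of a type and less RNA per cell cannot be told apart.

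Most of the 32 genes thus leaned one way while all but 3 had overlapping groups, and the spread between mice was wide. The range of a gene over the 6 arrays had a median of 1.25 log2 units in the set and 0.695 over all genes, and the standard error of the difference had a median of 0.297 against 0.185. WT2 was the highest array for 28 of the 32 genes, against 23.7% of all genes. Without WT2 the median difference of the set was -0.15, with 23 genes below 0 and 0 past the study's threshold. Leaving out KO1 gave the opposite, with a median of -0.63 and 11 genes past that threshold, and leaving out KO2 or KO3 left 1 gene past it. Over all genes, 434 were lower at this threshold with all 6 arrays, 744 without KO1, 406 without WT2, 301 without KO2 and 388 without KO3, so the count of the whole table was also highest without KO1. Without both WT2 and KO2 the median was -0.08 and again 0 genes passed.

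**Figure D1:**
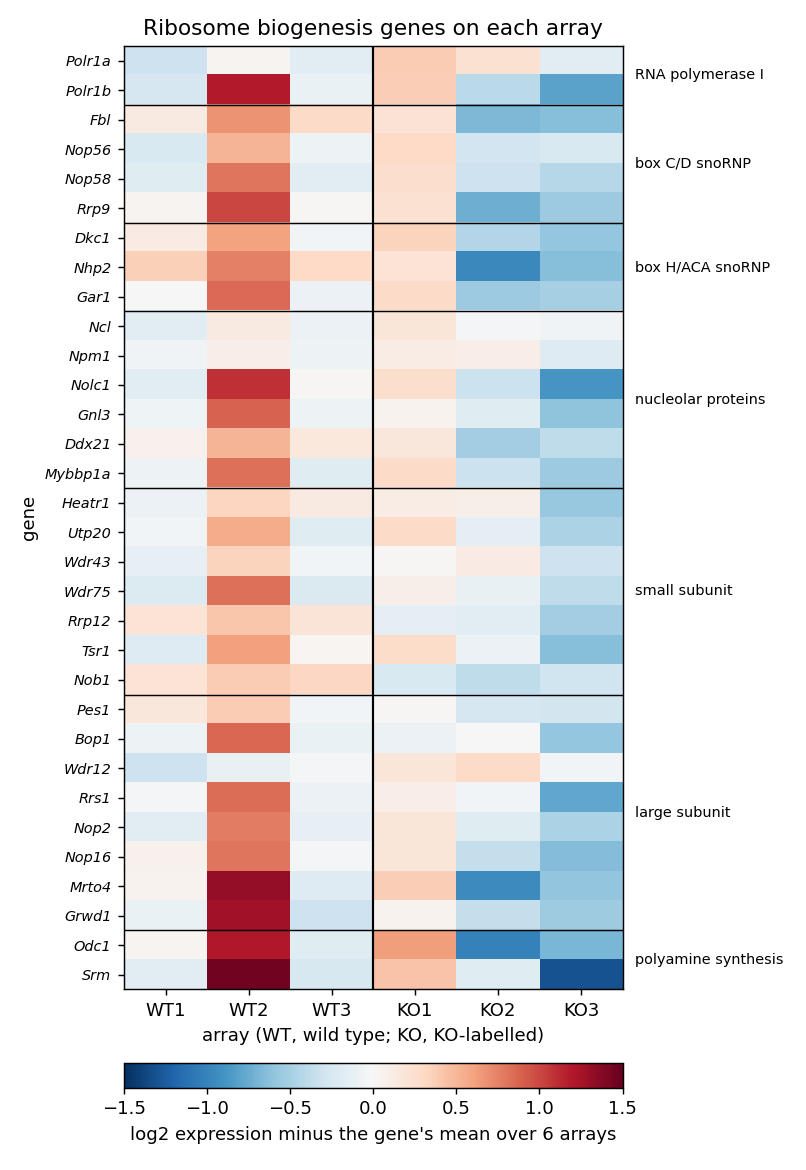
Heat map of the 32 genes in rows, grouped by role, on the 6 arrays in columns, with colour showing the log2 value minus the gene's mean over the 6 arrays. The WT2 column is the reddest, as it is the highest array for 28 genes, KO1 is above average for most genes, and KO3 is the lowest array for 20 genes.

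Promoters were examined because most of the set leaned one way and Myc, whose own level is given below, binds the E-box. RefSeq promoter windows of GRCm38.p6, 250 bases before to 50 after the annotated start, were at hand for 27 of the 33 genes. The E-box CACGTG, which reads the same on both strands, stood in the windows of 7 of these genes (25.9%), against 17.4% of 138 other ribosome biogenesis genes, 12.2% of 8060 tested genes and 8.09% of all 27025 genes in the promoter table. The RUNX motif, for which TGTGGT was searched on either strand together with TGTGGC, then TGCGGT and also TGCGGC, stood in 17 of the 27 (63.0%), against 48.6% of the other ribosome biogenesis genes, 54.7% of tested genes and 48.7% of all genes. An E-box can share its last 2 bases with the first of a TGTGGN motif. The following 4 whole windows belong to the E-box genes of largest difference on the arrays, and capitals mark every E-box and RUNX motif on either strand. They lie at chr7:45830740-45831039 on the minus strand for Grwd1, chr11:72441077-72441376 on the plus strand for Mybbp1a, chr11:3963725-3964024 on the plus strand for Pes1 and chr6:125131633-125131932 on the plus strand for Nop2.
Grwd1: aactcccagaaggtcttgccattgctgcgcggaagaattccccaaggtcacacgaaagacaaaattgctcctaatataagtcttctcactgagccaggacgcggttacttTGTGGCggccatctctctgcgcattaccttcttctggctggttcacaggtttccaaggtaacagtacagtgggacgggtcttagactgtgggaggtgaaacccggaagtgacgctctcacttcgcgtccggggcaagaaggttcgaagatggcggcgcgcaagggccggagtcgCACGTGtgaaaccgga
Mybbp1a: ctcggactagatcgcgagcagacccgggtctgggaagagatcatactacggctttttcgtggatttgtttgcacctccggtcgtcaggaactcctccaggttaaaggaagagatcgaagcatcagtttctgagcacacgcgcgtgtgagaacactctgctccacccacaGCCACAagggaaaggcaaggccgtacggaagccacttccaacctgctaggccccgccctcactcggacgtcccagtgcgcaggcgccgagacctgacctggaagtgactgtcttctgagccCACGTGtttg
Pes1: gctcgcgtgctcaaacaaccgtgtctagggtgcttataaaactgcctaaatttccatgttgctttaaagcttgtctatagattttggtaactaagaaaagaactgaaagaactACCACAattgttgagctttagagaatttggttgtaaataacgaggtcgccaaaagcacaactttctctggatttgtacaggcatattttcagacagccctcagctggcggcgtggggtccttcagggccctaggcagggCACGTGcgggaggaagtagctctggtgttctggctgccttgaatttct
Nop2: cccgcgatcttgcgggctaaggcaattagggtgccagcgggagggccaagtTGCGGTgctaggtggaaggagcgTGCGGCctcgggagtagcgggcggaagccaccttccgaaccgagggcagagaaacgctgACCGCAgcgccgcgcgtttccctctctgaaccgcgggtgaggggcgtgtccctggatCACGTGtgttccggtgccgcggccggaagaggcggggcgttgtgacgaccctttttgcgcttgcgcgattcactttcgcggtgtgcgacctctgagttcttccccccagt
In Grwd1, Mybbp1a and Pes1 the E-box lay just after the annotated start, with its first base at positions 35, 41 and 3, counted from 1 at the start, whereas in Nop2 it began 60 bases before the start. The Nop2 window held 3 RUNX motifs and each of the other windows held 1.

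The remaining 3 E-box genes had the motif in the same stretch after the start, at position 25 in Tsr1 (window chr11:74897830-74898129, plus strand), 38 in Utp20 (window chr10:88826765-88827064, minus strand) and 18 in Wdr43 (window chr17:71615965-71616264, plus strand), and none of the 3 windows held a RUNX motif. Their sites are shown with a few bases on either side, again with the E-box in capitals.
Tsr1: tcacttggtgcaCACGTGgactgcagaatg
Utp20: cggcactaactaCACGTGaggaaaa
Wdr43: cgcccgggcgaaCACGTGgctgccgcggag
Over the set, 6 of 7 E-boxes (85.7%) began within the 50 bases after the start, which is 20.7 for each 100 windows. Among 138 other ribosome biogenesis genes with a promoter window it was 13 of 27 E-boxes (48.1%, or 8.28 for each 100 windows), and among the 8060 tested genes with one 164 of 1197 (13.7%, or 1.61 for each 100 windows). All 7 E-box genes were below 0 on the arrays, from -0.57 in Grwd1 to -0.11 in Wdr43. So were 23 of all 27 genes of the set with a promoter window, so this count does not set the E-box genes apart. The genes of largest difference in the promoter table, Nhp2 and Mrto4, had no E-box in this window, so the letters did not order the genes by their difference. The match describes the letters of these windows and was not tested against binding.

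**Figure D2:**
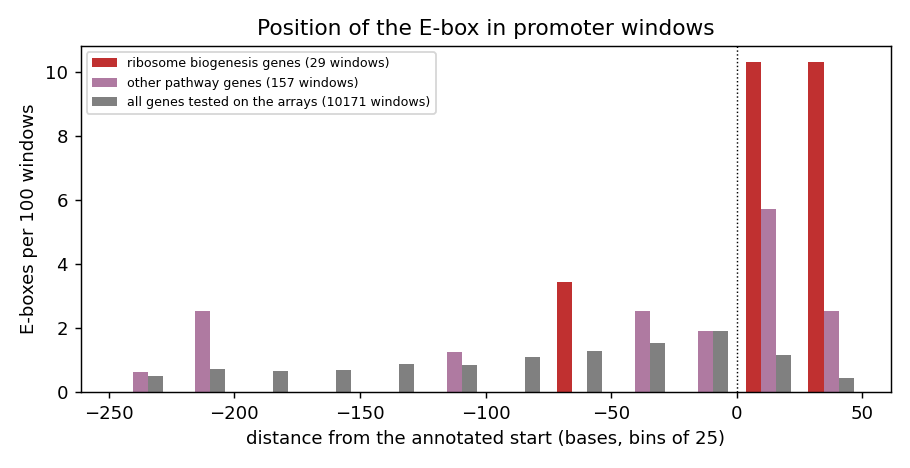
E-boxes for each 100 promoter windows, in bins of 25 bases by distance of the motif's first base from the annotated start, for the set, for other ribosome biogenesis genes and for all tested genes. In the set 6 of 7 E-boxes lie in the 2 bins after the start, where the bars for all tested genes stand at 1.17 and 0.442.

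RNA polymerase I was represented by its large catalytic subunits, which did not share a direction. Polr1a gave 6.18, 6.53 and 6.32 on WT1 to WT3 and 6.88, 6.72 and 6.32 on KO1 to KO3, a log2 difference of 0.29 (SE 0.19, limma adjusted p = 0.514). KO1 was the highest array and the groups overlapped. Polr1b gave 5.41, 6.85 and 5.56 on WT arrays and 6.03, 5.26 and 4.86 on KO-labelled arrays, a difference of -0.56 (SE 0.45, adjusted p = 0.591). WT2 stood 1.37 above the mean of WT1 and WT3 in Polr1b, a gap wider than the difference between the groups.

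The box C/D proteins were all below 0, with a median difference of -0.51 over 4 genes. Fbl, fibrillarin, the methyltransferase of these particles, gave 8.44, 8.98 and 8.59 on WT arrays and 8.51, 7.62 and 7.66 on KO-labelled arrays. KO2 and KO3 were below every WT array while KO1 lay above WT1, so the groups overlapped by 0.076. The difference was -0.74 (SE 0.28), or 1.67-fold lower, with an unadjusted p of 0.0332 and an adjusted p of 0.312 in limma. It left the study's threshold without WT2, WT3, KO2 or KO3, at -0.58, -0.78, -0.58 and -0.60. The result also depended on the row. Fbl had a further row, which by its identifier lies among rows of chromosome 7, the chromosome of the gene, and there the values were 7.40, 7.59 and 7.23 on WT and 7.49, 7.07 and 6.95 on KO-labelled arrays, a difference of -0.23 (adjusted p = 0.592). The row used, of higher mean, lies among rows of chromosome 17.

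Rrp9, the protein that marks the U3 snoRNP of small subunit processing, gave 6.22, 7.19 and 6.21 on WT and 6.41, 5.45 and 5.64 on KO-labelled arrays, a difference of -0.71 (SE 0.35, adjusted p = 0.412). KO1 was above both WT1 and WT3. The scaffold proteins Nop56 and Nop58 were closer together between groups, with differences of -0.14 (SE 0.25) and -0.31 (SE 0.32). For Nop56 every array lay between 9.01 and 9.80, and without WT2 the differences of Nop56 and Nop58 were 0.08 and 0.02.

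The box H/ACA proteins had a median difference of -0.50 over 3 genes and held the largest difference of the set. Nhp2, a core protein of these particles, gave 8.74, 9.14 and 8.68 on WT arrays and 8.58, 7.41 and 7.74 on KO-labelled arrays. The groups did not overlap, but KO1 came within 0.095 of WT3 while KO2 lay 1.17 below KO1. The difference was -0.94 (SE 0.31), or 1.92-fold lower, with an unadjusted p of 0.0188 and an adjusted p of 0.267, and without KO1 it was -1.28 (adjusted p = 0.0821). It left the study's threshold without WT2, KO2 or KO3, at -0.80, -0.69 and -0.86. Dkc1, dyskerin, the pseudouridine synthase, gave 8.83, 9.30 and 8.66 on WT and 9.03, 8.27 and 8.12 on KO-labelled arrays, a difference of -0.46 (SE 0.28, adjusted p = 0.501). Gar1, a further core protein, had a difference of -0.50 (SE 0.33, adjusted p = 0.517). In both, KO1 was above WT1 and WT3 and the groups overlapped.

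The nucleolar proteins held both steady and variable genes, with a median difference of -0.44 over 6 genes. Npm1, nucleophosmin, gave 11.1, 11.2 and 11.1 on WT arrays and 11.2, 11.2 and 10.9 on KO-labelled arrays, a difference of 0.02 (SE 0.15, adjusted p = 0.968) and the narrowest range of the 32 genes, 0.309. Ncl, nucleolin, an RNA-binding protein of the nucleolus, gave 10.8, 11.1 and 10.9 on WT and 11.2, 11.0 and 11.0 on KO-labelled arrays, a difference of 0.08 (SE 0.15, adjusted p = 0.845). Nolc1, a chaperone of snoRNPs, was more variable, with 6.80, 8.06 and 6.99 on WT and 7.23, 6.65 and 6.08 on KO-labelled arrays (difference -0.63, SE 0.41, adjusted p = 0.512). Ddx21, an RNA helicase, gave 8.62, 9.06 and 8.71 on WT arrays and 8.71, 8.03 and 8.17 on KO-labelled arrays (difference -0.49, SE 0.22, adjusted p = 0.380). Only KO1 kept the groups of Ddx21 from separating, by 0.096. Gnl3, the GTPase nucleostemin, and Mybbp1a, a Myb-binding protein whose promoter is shown above, had differences of -0.49 (SE 0.30) and -0.38 (SE 0.33).

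All 7 small subunit factors were below 0, with a median of -0.28, and this group held the genes with the clearest separation. Nob1, the endonuclease that makes the last cut of the small subunit rRNA, gave 7.86, 8.03 and 7.96 on WT arrays and 7.42, 7.27 and 7.36 on KO-labelled arrays. The means were 7.95 ± 0.09 and 7.35 ± 0.07 (SD, n = 3 each), with a gap of 0.437 between the groups and the smallest standard error of the set. The difference was -0.60 (SE 0.13), or 1.52-fold lower, with an unadjusted p of 0.00228 and an adjusted p of 0.120 in limma. It lay between -0.65 and -0.56 when any 1 array was left out, and was under 1.5-fold without WT2 or KO2 (-0.56 each), as it was with quantile normalization (-0.58) and with array weights (-0.54). WT2 exceeded the mean of WT1 and WT3 by 0.123. In Nob1 the WT2 excess was thus small beside the difference between groups.

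Rrp12, which takes part in the export of preribosomes, gave 6.27, 6.48 and 6.26 on WT arrays and 5.93, 5.91 and 5.54 on KO-labelled arrays. The groups were 0.331 apart, and the difference was -0.54 (SE 0.16), with an unadjusted p of 0.0119 and an adjusted p of 0.230. At 1.46-fold it did not reach 1.5-fold, but it did with quantile normalization (-0.62) and with array weights (-0.63). When arrays were weighted by limma's estimate of their precision, Rrp12 and Nob1 passed an adjusted p of 0.05, at 0.0372 with a difference of -0.63 and 0.0275 with a difference of -0.54. They were the 2 genes of the set that did so under any of 18 alternative settings, and under that weighting 547 genes of the whole table passed, against 63 without it.

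The other small subunit factors differed less between groups than within them. Tsr1, a late assembly factor, gave 7.49, 8.31 and 7.71 on WT and 7.96, 7.60 and 7.05 on KO-labelled arrays, a difference of -0.30 (SE 0.30, adjusted p = 0.664). Heatr1 and Wdr75, which act early on the precursor, had differences of -0.25 (SE 0.22) and -0.28 (SE 0.31). Utp20, of the large complex that folds the precursor, and Wdr43, an early factor, had differences of -0.22 (SE 0.27) and -0.11 (SE 0.19). In all 5 the groups overlapped and WT2 was the highest array. Without WT2, the differences of Wdr75, Wdr43 and Utp20 were 0.07, 0.03 and 0.002503. The groups of Tsr1, Utp20 and Wdr43, whose E-boxes are shown above, overlapped like those of the other E-box genes and of most of the set. The overlap does not set the E-box genes apart.

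**Figure D3:**
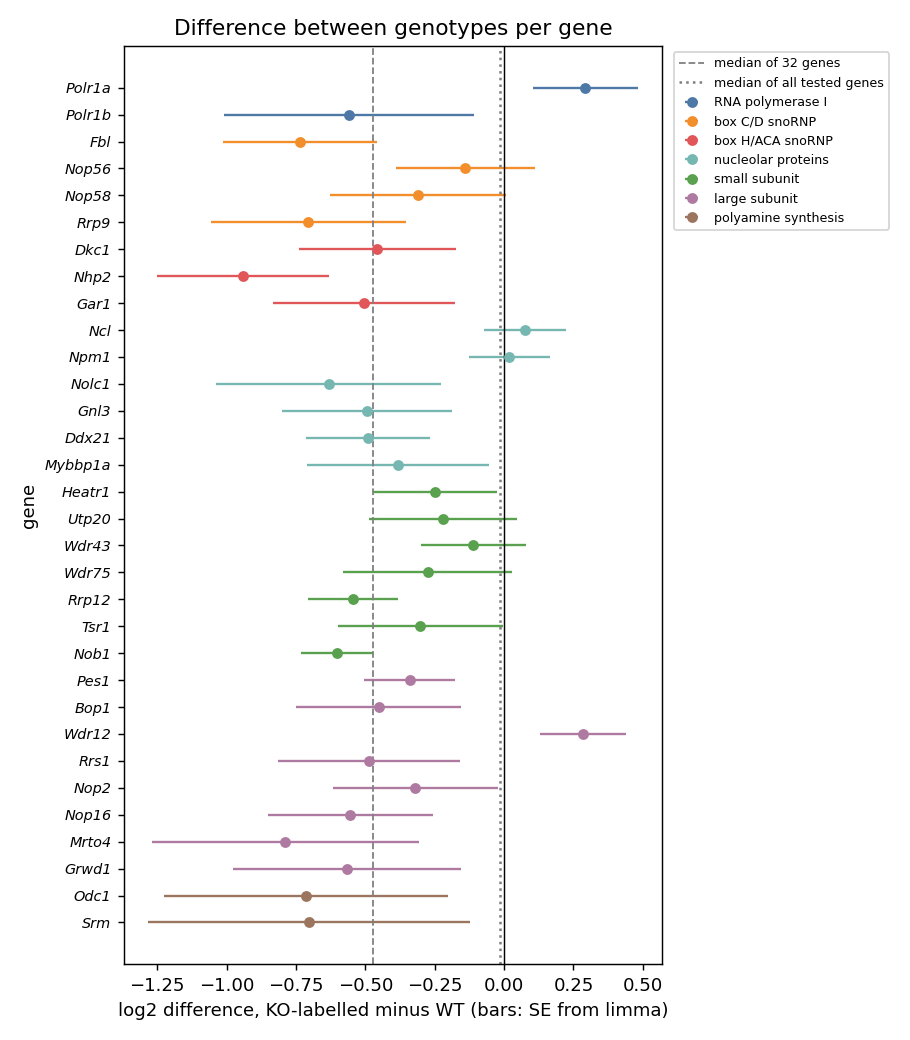
Log2 difference, KO-labelled minus WT, of each of the 32 genes with its standard error from limma, coloured by role, beside the median of the set (dashed, -0.47) and of all tested genes (dotted, -0.01). Of the 32 points 28 lie left of 0, and the error bars are shortest for Nob1 and longest for Srm.

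Large subunit factors had a median difference of -0.47 over 8 genes, 7 of them below 0, and none passed either threshold. Pes1, Bop1 and Wdr12 form the PeBoW complex, and their differences did not share a direction. Pes1 gave 8.43, 8.63 and 8.22 on WT and 8.27, 8.01 and 7.98 on KO-labelled arrays, a difference of -0.34 (SE 0.16, adjusted p = 0.403), and the groups overlapped by 0.05. Bop1 gave 6.51, 7.44 and 6.48 on WT and 6.50, 6.58 and 6.00 on KO-labelled arrays, a difference of -0.45 (SE 0.30, adjusted p = 0.520). Wdr12 was on the other side of 0, with 7.66, 7.86 and 7.96 on WT and 8.15, 8.26 and 7.93 on KO-labelled arrays, a difference of 0.28 (SE 0.15, adjusted p = 0.444). It was the gene of the set that was highest on KO2 and in which WT2 exceeded the mean of WT1 and WT3 the least, by 0.052. The row used for Wdr12 lies among rows of chromosome 7, and its row among those of chromosome 1, where the gene lies, gave a difference of 0.59 with KO2 at 7.11 and the other arrays between 5.60 and 6.29.

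Among the other large subunit factors, those of widest range followed WT2. Mrto4, a trans-acting assembly factor, gave 6.75, 8.02 and 6.50 on WT arrays and 7.06, 5.74 and 6.10 on KO-labelled arrays, a difference of -0.79 (SE 0.48, adjusted p = 0.491). KO1 was above WT1 and WT3, so the second largest difference of the set came with overlapping groups. A further Mrto4 row, which lies among rows of chromosome 12 and not of the gene's own chromosome 4, gave -0.92. Grwd1, a chaperone of a large subunit protein, gave 4.43, 5.79 and 4.22 on WT and 4.58, 4.18 and 3.99 on KO-labelled arrays, a difference of -0.57 (SE 0.41, adjusted p = 0.555). On WT3, KO2 and KO3 these values lie below 4.26, the median of the whole table used here in place of a background level, so only WT2 was far above it. Nop16, an assembly factor, and Rrs1, which helps to place the large subunit's smallest rRNA, had differences of -0.55 (SE 0.30) and -0.49 (SE 0.33), and Nop2, an rRNA methyltransferase, had -0.32 (SE 0.30).

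The polyamine enzymes varied widely, with a range over the arrays of 2.22 in Odc1 and 2.76 in Srm, the widest of the set, beside 2.28 in Mrto4. Odc1, ornithine decarboxylase, gave 8.18, 9.35 and 7.96 on WT arrays and 8.77, 7.12 and 7.46 on KO-labelled arrays, a difference of -0.71 (SE 0.51, adjusted p = 0.551). Srm, spermidine synthase, gave 6.67, 8.28 and 6.60 on WT and 7.27, 6.66 and 5.53 on KO-labelled arrays, a difference of -0.70 (SE 0.58, adjusted p = 0.599). In each, WT2 and KO1 were the highest arrays, so the differences of 1.64-fold and 1.63-fold were well within the spread between mice. A further Odc1 row, among those of the gene's own chromosome 12, gave -0.61. Without the polyamine enzymes the median of the other 30 genes was -0.45, with 26 below 0.

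Across the set, several arrays kept a similar place from gene to gene. WT2 was above WT1 for 32 of 32 genes and above WT3 for 31, against 44.5% and 50.8% of all genes. KO1 was above WT1 for 27 genes and above WT3 for 27, against 51.6% and 57.9% of all genes, so 1 KO-labelled array sat with or above the other WT arrays for most of the set. KO3, in contrast, was above WT1 for 3 genes and above WT3 for 1, against 47.3% and 54.5%, and was the lowest array for 20 genes, against 12.5% of all genes. KO2 was the lowest array for 9 genes, against 34.7% of all genes, and above WT1 for 9. Averaged over the 32 genes, the log2 deviation from each gene's mean over 6 arrays was -0.05, 0.69 and -0.04 on WT1 to WT3 and 0.19, -0.29 and -0.51 on KO1 to KO3. The mean deviations differed by -0.40 between the groups, against a pooled SD of 0.39 between arrays of a group.

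Cell cycle genes shared this order only in part. A list of 28 S phase genes averaged 0.12, 0.53 and -0.42 on WT1 to WT3 and 0.67, -1.35 and 0.46 on KO1 to KO3, and 29 G2/M genes averaged 0.19, 0.23 and -0.36 and then 0.63, -1.44 and 0.75. WT2 was the highest WT array in both lists, as in the set, and KO1 was the highest KO-labelled array for S phase genes. KO2 was low in both lists, whereas KO3, the lowest array for ribosome biogenesis, was among the higher ones. Without KO2 the median difference of the set was -0.36. The G2/M mean differed by only -0.04 between the groups, so the median of -0.47 with that mean as a covariate says nothing about its part. In 9 housekeeping genes WT2 and KO1 were also the highest arrays, with mean deviations of 0.18 and 0.17, and KO2 was the lowest at -0.26.

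**Figure D4:**
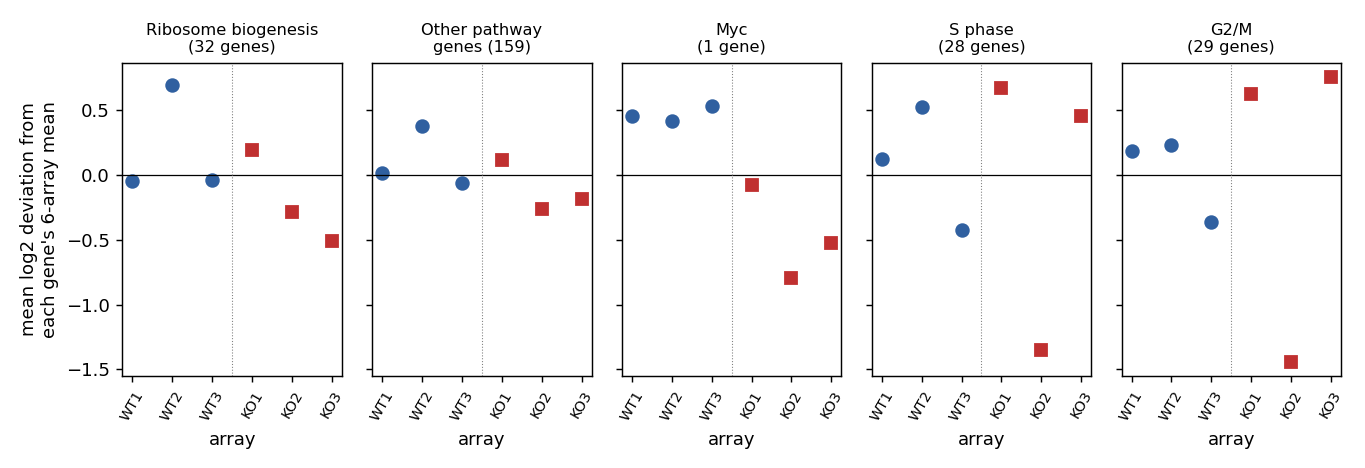
Mean log2 deviation from each gene's mean over 6 arrays, on WT arrays (circles) and KO-labelled arrays (squares), for the 32 genes, for 159 other ribosome biogenesis genes, for Myc and for S phase and G2/M genes. WT2 is high in the first panel at 0.69 but not for Myc, where the 3 WT arrays lie together between 0.42 and 0.53, and KO2 is far below the others in the cell cycle panels.

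Of 18 tested regulators of ribosome production, 0 passed an adjusted p of 0.05 in limma, against 0.629% of all genes, and their median difference was -0.01. At the study's threshold 1 was lower and 2 were higher, against 4.33% and 3.97% of all genes. Myc gave 10.2, 10.1 and 10.2 on WT arrays and 9.61, 8.90 and 9.17 on KO-labelled arrays. The groups did not overlap, and the WT means of 10.16 ± 0.06 and KO-labelled means of 9.23 ± 0.36 (SD, n = 3 each) differed by -0.93 (SE 0.20, limma adjusted p = 0.118). Its difference lay between -1.13 and -0.77 when any 1 array was left out. With array weights it passed at an adjusted p of 0.0141, in a fit where 547 genes of the whole table passed, against 63 without weights. WT2, the highest array for 28 of the 32 genes, lay close to the other WT arrays for Myc, whose SD on WT arrays was 0.06. Mycn, a paralog of Myc that was singled out after its values were seen, gave 4.41, 6.38 and 4.19 on WT and 4.14, 3.88 and 4.21 on KO-labelled arrays (difference -0.92, SE 0.55, adjusted p = 0.484), with WT2 alone far above the table's median. Cdkn2a and Rptor, which passed no threshold either, had differences of -0.94 (SE 0.50) and -0.69 (SE 0.31). WT2 was the highest array for Cdkn2a and the lowest WT array for Rptor.

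The regulators higher at the study's threshold were Mga and Tsc1. Mga, a Max partner that opposes Myc at E-boxes, gave 7.30, 6.97 and 7.43 on WT and 7.49, 7.97 and 8.02 on KO-labelled arrays, a difference of 0.59 (SE 0.20, adjusted p = 0.283). Tsc1, a brake on the growth kinase mTOR, gave 6.40, 5.97 and 6.28 on WT and 6.56, 6.90 and 6.97 on KO-labelled arrays, a difference of 0.59 (SE 0.18, adjusted p = 0.239). The groups did not overlap in either gene, and WT2 was the lowest array of both. Without WT2 the difference was 0.46 for Mga and 0.47 for Tsc1, without KO2 0.52 and 0.55, and without KO3 0.50 and 0.51, all below 1.5-fold, so neither stayed at the study's threshold in these fits.

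A wider list of 159 other ribosome biogenesis genes was written from general knowledge of the pathway, with earlier results of these data known. These genes showed a smaller lean. Their median difference was -0.21, with 136 below 0 (85.5%), against 52.0% of all genes. None passed an adjusted p of 0.05, against 0.629% of all genes. At an unadjusted p under 0.05, 7 were lower and 1 was higher, against 7.14% and 6.95%. At the study's threshold 3 were lower and 0 higher, against 4.33% and 3.97%. Genes past a threshold were thus no more common here than in the whole table. Groups were separated in 16 genes that were lower and 5 that were higher, against 10.9% and 11.6% of all genes. By role, the medians were -0.13 for 18 genes of RNA polymerase I (12 below 0), -0.22 for 13 snoRNP genes (11 below 0), -0.24 for 50 small subunit genes (47 below 0), -0.20 for 53 large subunit genes (44 below 0) and -0.29 for 25 nucleases of RNA processing (22 below 0). The genes past the study's threshold were Polr2h, a subunit shared by RNA polymerases I, II and III, Utp14a, a small subunit factor, and Rrp1b, a large subunit factor.

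Utp14a gave 7.42, 7.38 and 7.20 on WT and 7.06, 6.38 and 6.73 on KO-labelled arrays, a difference of -0.61 (SE 0.20, adjusted p = 0.265). As in Nob1, the WT arrays lay close together and all 3 KO-labelled arrays were below them. Rrp1b gave 5.82, 6.49 and 5.70 on WT and 5.69, 5.17 and 5.21 on KO-labelled arrays, a difference of -0.65 (SE 0.26, adjusted p = 0.325), with KO1 only just below WT3. Polr2h had a difference of -0.66 (SE 0.28, adjusted p = 0.353) with overlapping groups. Without WT2, and likewise without KO2, none of the 159 genes passed the study's threshold, while without KO1 17 did, beside the shift of all genes from 434 to 406, 301 and 744 in these fits. The mean deviations of these genes on WT1 to WT3 were 0.01, 0.38 and -0.06 and on KO1 to KO3 were 0.12, -0.26 and -0.19, so WT2 was again the highest array and KO1 the next.

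**Figure D5:**
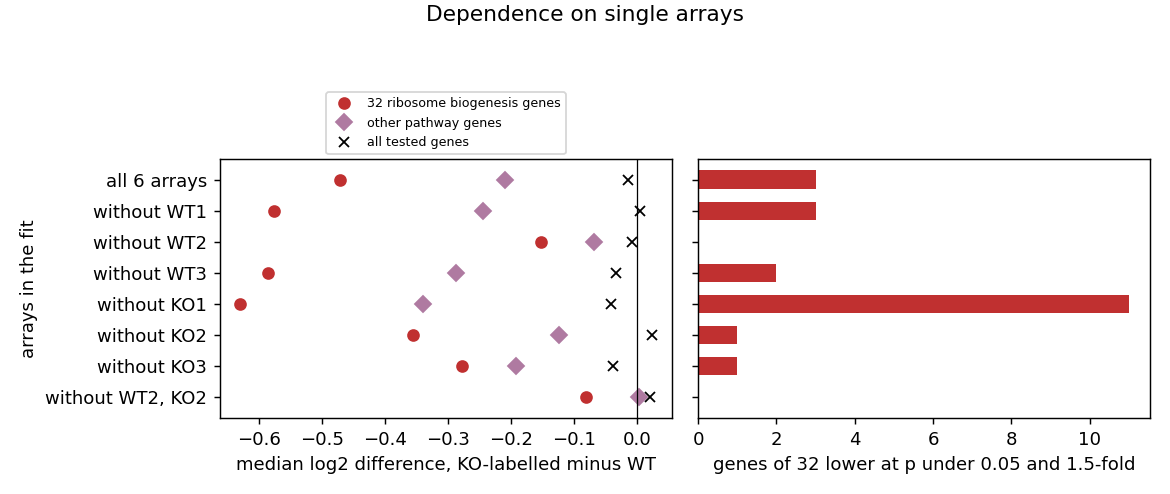
Left, median log2 difference of the set, of other ribosome biogenesis genes and of all tested genes with all 6 arrays and with arrays left out. Right, how many of the 32 genes were lower at an unadjusted p under 0.05 and 1.5-fold. The median of the set runs from -0.63 without KO1 to -0.08 without WT2 and KO2, and the count from 11 to 0.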

How the data were processed

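The deposited values are log2 expression values, 1 column per array with no pooling, which the authors made in Partek Genomics Suite with a GC-corrected robust multichip average (RMA). RMA subtracts background, quantile-normalises probes and summarises them per transcript cluster, and it compresses differences of dim genes. No version of Partek or of the array annotation is given in the sources used here. There are no detection calls, and for arrays it is their number that limits the precision.

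Of 35399 rows, 21789 were paired with exactly 1 gene symbol, 1621 with several and 11989 with none here. Per gene the row of highest mean was kept, and genes with at least 1 of 6 values at or above the table's median, 4.26, were tested. KO-labelled and WT arrays were compared with limma 3.58.1 in R 4.3.3 (lmFit, eBayes, no covariate, two-sided), with Benjamini-Hochberg adjustment over 10021 genes. Standard errors are limma's moderated ones. Since each array is a mouse with a culture of its own, the p-values cover the spread of both. The fit was tried on simulated data with changes larger than any in the set and noise independent between genes. That trial does not cover differences of the size seen here. Figures were drawn with matplotlib 3.10.9.

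The members and all lists were chosen with earlier results of these data known, so lists are described by counts and medians beside those of all genes and were given no test. Genes named are all members, up to 3 genes of each pathway list past the study's threshold, regulators past a threshold and Myc, besides Mycn, which was singled out after its values were seen. Cdkn2a and Rptor are given beside Mycn for the size of their differences. The order of row identifiers follows the chromosomes, and 96.8% of 21695 named rows lie among rows of their gene's chromosome, which is how the place of a row was read. Alternatives covered the filter, normalization, row choice, replicate block, priors, array weights, the G2/M mean and left-out arrays. The choice of the row by chromosome was added after seeing the data.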

Additional observations from a re-analysis of the deposited data

How the results depend on the processing

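The replicate block, the priors, the unmoderated model and the changes of filter leave each gene's difference as it was. The median difference of the set stayed below 0 under these and all other alternatives, 18 in number. It ran from -0.63 without KO1 to -0.15 without WT2 when 1 array was left out, and was -0.08 without WT2 and KO2, where the median of the other pathway genes was 0.00254. The count of the set past the study's threshold ranged from 0 to 11 when 1 array was left out (0 without WT2, 1 without KO2, 1 without KO3 and 11 without KO1), and was 0 without WT2 and KO2, 1 in an unmoderated linear model and 2 with rows of the gene's own chromosome, where Fbl no longer passed. No gene of the set passed an adjusted p of 0.05 except 2 with array weights.

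The other pathway genes past the study's threshold, 3 in the fit reported, numbered 1 under a stricter filter on dim genes, with the replicate block and in the unmoderated model, 5 with quantile normalization and with array weights, and 0 without WT2 and KO2. They numbered 0 to 17 when 1 array was left out (17 without KO1, and 6, 0, 10, 0 and 1 without WT1, WT2, WT3, KO2 and KO3). Of all tested genes, 63 passed an adjusted p of 0.05. They numbered 36 without the filter, 11 under the stricter filter, 1 with the replicate block, 0 in the unmoderated model and 547 with array weights, and ran from 9 without KO3 to 67 without KO1 when 1 array was left out, with 17, 26 and 11 when it was WT1, WT2 or WT3 and 27 when it was KO2. At the study's threshold all genes numbered 222 lower and 224 higher under the stricter filter and 267 and 241 in the unmoderated model, where fewer genes were tested or the variance was not shared. With 1 array left out, 301 (without KO2) to 744 (without KO1) were lower and 245 (without WT2) to 514 (without KO1) were higher. The cause of the other shifts was not tested.

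Of 32 genes, 25 kept their sign throughout and 7 did not, in 18 of 570 values. Many of these values could not change sign. The settings named above repeat each gene's difference, and the row choices move only genes with several rows. Npm1, at 0.02, was -0.0497 with median normalization, -0.0573 with array weights, and -0.003467, -0.01172, -0.03395 and -0.0285 without WT1, WT3, KO1 and KO2, with 0.121 without KO3 as its highest. With 1 array left out, the differences ran from -0.325 (without KO1) to 0.0790 (without WT2) in Nop56, from -0.522 to 0.0153 in Nop58 and from -0.421 to 0.002503 in Utp20, by the same arrays. They ran from -0.202 (without KO2) to 0.0300 (without WT2) in Wdr43, which was 0.0191 without KO3, and from -0.450 (without WT3) to 0.0701 (without WT2) in Wdr75. Without WT2 and KO2 they were 0.188 in Nop56, 0.0912 in Nop58, 0.0184 in Utp20, 0.0593 in Wdr75 and 0.0409 in Odc1. Nop56 was 0.002008 with array weights.

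The replicate numbers gave no sign of pairing, as the deviations of same-numbered arrays from their group means correlated at -0.131, -0.369 and -0.133. Arrays of unlike number ran from -0.452 (WT3 with KO1) to 0.441 (WT3 with KO2). With so few arrays in a group these values cannot settle whether the arrays were paired. With the replicate block, 0 genes of the set passed an adjusted p of 0.05 and 2 passed the study's threshold.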
